A study of Homo sapiens with 24 samples.

Results

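The transcripts of 10 genes of the microRNA pathway were examined in m6A-seq data of human pancreatic differentiation. In m6A-seq, fragmented RNA is pulled down with an antibody that binds N6-methyladenosine (m6A). The reads of this immunoprecipitate (IP) are then compared with those of the unselected fragments (input), and a stretch with an excess of IP reads is called a peak. The genes were DROSHA, DGCR8 and DICER1, AGO1, AGO2, AGO3 and AGO4, and TNRC6A, TNRC6B and TNRC6C. A peak belonged to a gene when its Ensembl gene IDs included the GENCODE ID of that gene. This rule took 324 of the 228472 peaks in the 6 peak lists. All 10 genes had at least 1 peak in each of the 6 lists, whereas 29.4% of the 24889 genes with a peak anywhere did so.

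The cells were the human embryonic stem cell line MEL1 and its derivatives. The methods of the study name it MEL1 INSGFP/W, a line with a GFP reporter at the insulin locus, so the reporter was shared by all groups. The cells were kept before differentiation on CF1 feeder cells. One experiment covered 4 stages, which were undifferentiated hPSCs, definitive endoderm (DE), pancreatic progenitors (PPs) and human islet-like organoids (hILOs). Activin A and CHIR99021 opened the differentiation. KGF, retinoic acid, LDN-193189 and GDC-0449 followed, and EGF preceded the aggregation of the cells into hILOs. A separate experiment compared wild-type PPs (WT PP) with PPs lacking the m6A demethylase ALKBH5 (A5-KO PP), whose line was grown from a colony picked after CRISPR-Cpf1 editing of the first ALKBH5 exon. These experiments are called batch 1 and batch 2 here, names that the sample titles do not give. Batch 1 started from enriched mRNA and used a SYSY antibody and Illumina libraries. Batch 2 started from total RNA, used a Millipore antibody, depleted rRNA from the input fragments alone and used a SMARTer stranded kit, so population and method cannot be told apart between the batches. The 24 libraries were an IP pair and an input pair for every population, and the authors deposited 1 peak list for each population. Values of single libraries were not analysed here, and no comparison below therefore has a replicate check or a p-value. Intervals are exact Clopper-Pearson 95% intervals that cover counting error only, and peaks of 1 transcript are not independent.

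MicroRNAs are cut from their primary transcripts in the nucleus by the Microprocessor, in which DROSHA is the RNase III enzyme and DGCR8 its RNA-binding partner. DICER1 then cuts the hairpin to the mature duplex in the cytoplasm. One strand is loaded onto an Argonaute protein, and Argonautes recruit the GW182 proteins TNRC6A, TNRC6B and TNRC6C, which bring in the machinery that shortens poly(A) tails and represses translation. m6A itself is placed mainly at DRACH sequences (where D stands for any base but C, R for a purine and H for any base but G), often near stop codons and in long exons.

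The labels were checked against stage markers by the presence of peaks. Peaks on POU5F1 and NANOG were found in hPSCs and DE alone. SOX17 had 3 peaks in DE, 3 in WT PPs, 2 in A5-KO PPs and none in hPSCs, PPs or hILOs. PDX1 and NKX6-1 had 2 to 5 peaks each in PPs, hILOs, WT PP and A5-KO PP and none in the earlier stages. INS and GCG had 1 peak each, in hILOs. ALKBH5 had 5 peaks in A5-KO PPs against 4 in WT PPs. Small insertions or deletions in 1 exon need not remove a transcript, so these peaks say nothing about the knockout. In these bulk samples, a peak missing because fewer cells express the gene cannot be told apart from one missing because each cell holds less of the RNA.

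The 10 transcripts carried 50 peaks in hPSCs, 54 in DE, 48 in PPs and 52 in hILOs. WT PP had 63 and A5-KO PP 57. Relative to the length of each list, this came to 1.36 peaks per 1000 in hPSCs, 1.65 in DE, 1.65 in PPs and 1.65 in hILOs, and to 1.45 in WT PPs and 1.03 in A5-KO PPs. The A5-KO PP list was the longest, with 55219 peaks against 43312 in WT PPs, yet held fewer peaks of these genes. Exonic bases under their peaks were counted on exons of any annotated isoform. They numbered 14950 in hPSCs, 11175 in DE, 11425 in PPs, 14305 in hILOs, 19375 in WT PPs and 17193 in A5-KO PPs. A single DICER1 peak gave 2416 of the A5-KO PP bases. At p below 1e-05 the counts were 37 in hPSCs, 34 in DE, 34 in PPs, 49 in hILOs, 38 in WT PPs and 26 in A5-KO PPs. At p below 1e-10 they were 28 in hPSCs, 19 in DE, 18 in PPs, 33 in hILOs, 18 in WT PPs and 16 in A5-KO PPs. Both thresholds use the deposited p, which could be tied to its peak for only 56 of the 324 peaks. These counts therefore do not show how the lists order at a stricter threshold. Peak number and peak extent did not run in parallel, since DE had more peaks than hPSCs and fewer bases under them.

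**Figure D1:**
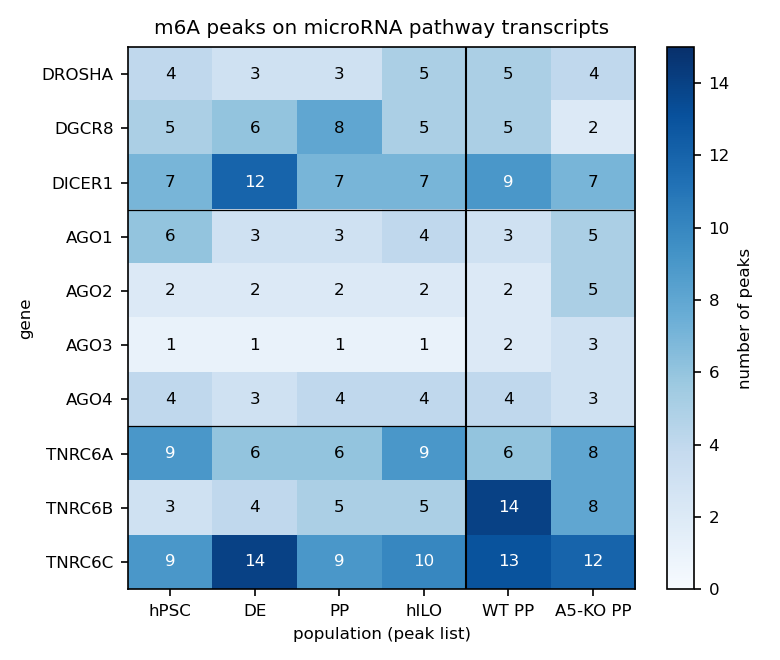
Number of m6A peaks on each of the 10 transcripts (rows) in each of the 6 peak lists (columns), with darker cells for more peaks. The vertical line parts batch 1 from batch 2 and the horizontal lines part the processing, Argonaute and GW182 genes. TNRC6B reached 14 peaks in WT PPs against 3 to 8 in the other lists, and AGO3 had 1 to 3.

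By role, the processing genes had 16, 21, 18 and 17 peaks in hPSCs, DE, PPs and hILOs, and 19 in WT PPs and 13 in A5-KO PPs. Argonaute transcripts had 13, 9, 10 and 11 peaks in the stages, 11 in WT PPs and 16 in A5-KO PPs. The GW182 genes had most, with 21, 24, 20 and 24 in the stages, 33 in WT PPs and 28 in A5-KO PPs. From WT PP to A5-KO PP the counts were lower for the processing and GW182 genes and higher for the Argonautes. That pattern is a count of peaks in 2 lists and has no test.

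Overlapping peaks of a gene were joined across the lists into 85 positions. Of these, 21 were occupied in all 6 lists (24.7%), whereas 9.37% of positions on all genes were. On 20 of the 21 a stretch of bases lay under a peak of every list. The exception was the last exon of DROSHA, where at most 5 lists met at any base. A peak in 1 list alone was found at 36 positions (42.4%, against 53.5% on all genes). WT PP accounted for 19 of them, A5-KO PP for 9, hILOs for 4, DE for 3 and PPs for 1, whereas hPSCs had none. Of the WT PP positions, 9 lay on TNRC6B. Positions on all genes were not divided by list, so it is not known whether these counts depart from them. Batch 2 alone held 35 positions (41.2%, against 42.6%). Batch 1 alone held 15 and both batches 35, counts that have no share over all genes beside them. Counted in bases, 20.6% of the bases under any peak of these transcripts lay under a peak of all 6 lists, against 9.09% over all genes.

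**Figure D2:**
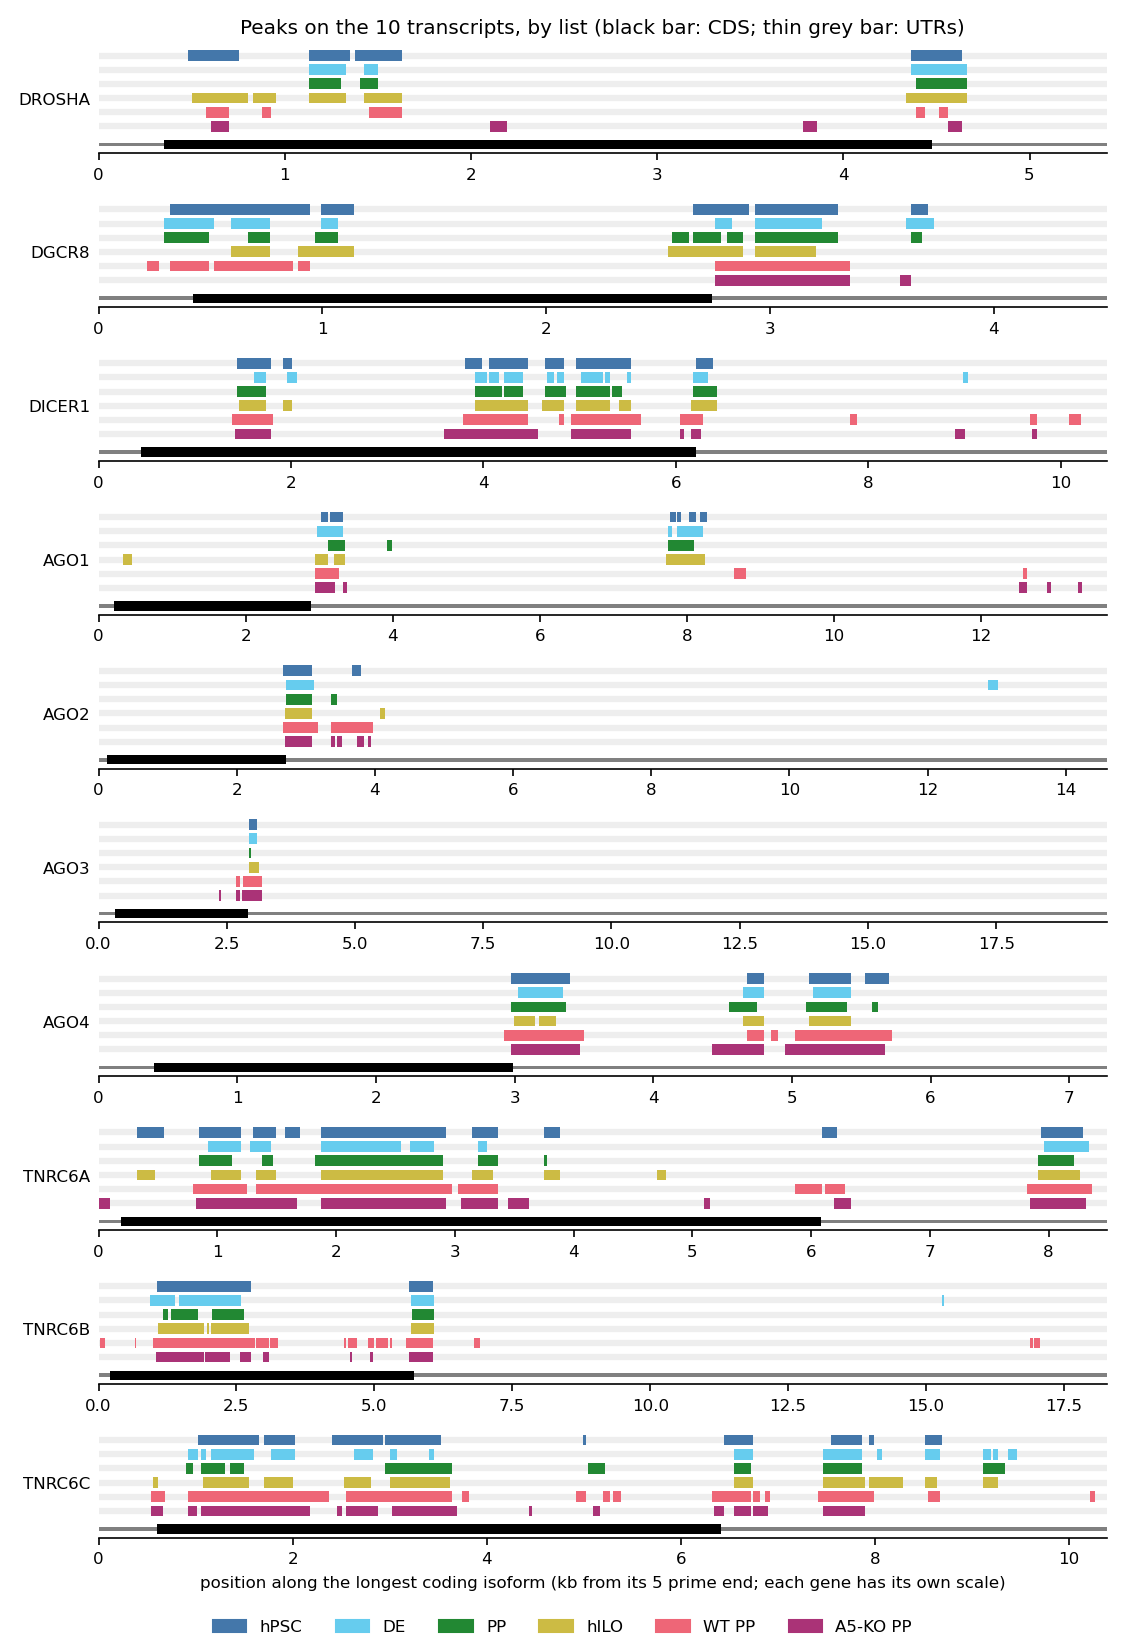
Peaks along the longest coding isoform of each gene, in kb from its 5' end and with a separate scale per gene. Coloured blocks are the peaks of 1 list per line, the black bar is the CDS and the thin grey bar the UTRs. Argonaute peaks lie in the 3'UTR apart from 4, whereas the processing and GW182 genes have blocks of peaks inside the CDS.

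The location of the peaks differed among the roles. Of 70 Argonaute peaks, 66 had their midpoint in the 3'UTR and 4 in the CDS of the longest coding isoform. Of 104 peaks on the processing genes, 69 lay in the CDS, 30 in the 3'UTR and 4 in the 5'UTR. Of 150 GW182 peaks, 90 lay in the CDS, 47 in the 3'UTR and 3 in the 5'UTR. The remaining 1 and 10 peaks were off that isoform. Over the 10 genes together the share in the CDS was 47.9% in hPSCs (33.3 to 62.8), 51.9% in DE (37.8 to 65.7), 53.3% in PPs (37.9 to 68.3), 56% in hILOs (41.3 to 70), 52.4% in WT PPs (39.4 to 65.1) and 50.9% in A5-KO PPs (36.8 to 64.9). All peaks of the same lists gave 52.8%, 50.8%, 55.9%, 53.7%, 49% and 56.3%. Each of these values for all peaks lay inside the interval of the 10 genes.

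Long internal exons held a larger part of these peaks than of all peaks. In internal exons over 400 nt lay 39.6% of the peaks in hPSCs (25.8 to 54.7), 46.3% in DE (32.6 to 60.4), 42.2% in PPs (27.7 to 57.8), 42% in hILOs (28.2 to 56.8), 28.6% in WT PPs (17.9 to 41.3) and 24.5% in A5-KO PPs (13.8 to 38.3). Over all peaks the share was 16.7%, 15.3%, 17.2%, 13.6%, 15.4% and 15.1%. The value for all peaks lay below the interval in 5 lists and inside it in A5-KO PPs. The 3 processing genes and the 3 GW182 genes have internal exons of that length, whereas no Argonaute does. Within 200 nt of the stop codon lay 20.8% of the peaks of these genes in hPSCs, 11.1% in DE, 17.8% in PPs, 18% in hILOs, 14.3% in WT PPs and 18.9% in A5-KO PPs. Over all peaks the share there was 20.6%, 21.9%, 20.2%, 21.6%, 19% and 18.2%.

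DROSHA (chr5:31400494-31532196, minus strand) had 4 peaks in hPSCs, 3 in DE, 3 in PPs, 5 in hILOs, 5 in WT PPs and 4 in A5-KO PPs. Its peaks clustered in exons 5, 6 and 8 and around the stop codon in exon 36. The position centred on exon 6, chr5:31515512-31526157, was found in all 4 stages and in neither list of batch 2. The exon 8 position, chr5:31515003-31515486, occurred in all lists but A5-KO PP. The A5-KO PP list instead had peaks in exons 13 and 30 that no other list had. In exon 36 the peak covered 275 bases in hPSCs, 300 in DE, 275 in PPs and 316 in hILOs, against 100 in WT PPs and 75 in A5-KO PPs. The 4 stages thus lay above both lists of batch 2 in that exon.

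DGCR8 (chr22:20080221-20111877, plus strand) had 5, 6, 8 and 5 peaks in the stages, 5 in WT PPs and 2 in A5-KO PPs. Its peaks fell on exon 2, which holds the start codon, and on exon 14, which holds the stop codon, with 1 further peak in exon 13 in PPs and in hILOs. Exon 2 is 997 nt long. Peaks covered 77.4% of it in hPSCs, 47.6% in DE, 40.1% in PPs, 42.3% in hILOs and 62.7% in WT PPs. A5-KO PP had no peak there. In exon 14 all lists had peaks, over 37.8%, 27.1%, 33.7% and 26.9% of the exon in the stages, 32.5% in WT PPs and 35.2% in A5-KO PPs. WT PP and A5-KO PP shared the largest of these peaks base for base, a stretch of 600 nt at chr22:20110123-20110722. The absence in exon 2 of A5-KO PP was therefore not an absence from the transcript. The A5-KO PP list lacked 4.72% of its peak numbers and the WT PP list 9.51%, so a peak absent from a list may have been called and then removed.

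Exon 2 of DGCR8 also contains 2 microRNA hairpins of its own, MIR3618 in the 5'UTR and MIR1306 in the CDS, which the Microprocessor can cut out of the DGCR8 mRNA. The mature RNAs, from RefSeq on GRCh38.p14, are shown with the seed (bases 2 to 8) in capitals, as the products that lie in the exon with the uneven coverage.
hsa-miR-3618: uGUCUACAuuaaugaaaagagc
hsa-miR-1306-5p: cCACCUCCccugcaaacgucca
hsa-miR-1306-3p: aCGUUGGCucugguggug
No 2 of these seeds are the same. The MIR1306 hairpin (chr22:20086058-20086142, 85 nt) lay under DGCR8 peaks over all 85 of its bases in hPSCs and over 81 in WT PPs. Only 10 of its bases did so in DE and 6 in hILOs, and none in PPs or A5-KO PP. The MIR3618 hairpin (chr22:20085746-20085833, 88 nt) had 50 bases under a peak in WT PPs and none in the other lists, although peaks of DE and PPs began 3 bases away. Reads of the hairpins and of the DGCR8 mRNA share this sequence and cannot be told apart.

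DICER1 (chr14:95086228-95158010, minus strand) had 7 peaks in hPSCs, 12 in DE, 7 in PPs, 7 in hILOs, 9 in WT PPs and 7 in A5-KO PPs. Of its 11 positions, 4 were occupied in all 6 lists. They lay in exon 11, exon 24, exon 26 and around the stop codon in exon 30. Exon 26, 889 nt long, was covered over 85.9% in hPSCs, 53.4% in DE, 74.7% in PPs, 74.7% in hILOs, 75.9% in WT PPs and 70.3% in A5-KO PPs. DE was lowest although it had the most peaks on that exon, 5 against 1 to 3. In A5-KO PP the peak over exon 24 extended to chr14:95099866-95105194, with 2416 bases on exons of any annotated isoform, of which the longest coding isoform holds the smaller part. The 2 sequences shown are GGACT sites, a frequent form of the m6A motif, in the bases of exons 24 and 26 that every list had under a peak. They are read 5' to 3' on the transcript strand of GRCh38, with the DRACH site in capitals.
DICER1 exon 24, chr14:95103519-95103543: tactcctcaaGGACTcttggcccca
DICER1 exon 26, chr14:95096226-95096250: aaagcatagcGGACTgtgtggaagc
A site of this form also lay in the exon 14 stretch of DGCR8 common to all 6 lists, whereas the exon 8 stretch of DROSHA, common to 5 lists, has other DRACH sites and no GGAC. Both are given for contrast.
DGCR8 exon 14, chr22:20110328-20110352: ctgaatggatGGACTcagcgactgc
DROSHA exon 8, chr5:31515145-31515169: accgttggagTGACAaccagagttc

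DROSHA stood apart in its motif content. Of its 24 peaks 22 held a DRACH site and 1 held GGAC. Per kb of exon, its peaks had 0.706 GGAC sites and the rest of the transcript 3.75. DGCR8 ran the other way, with 8.07 per kb in peaks and 3.02 outside, and GGAC in 20 of its 31 peaks. DICER1 had 2.42 and 1.39 per kb, and GGAC in 15 of 49 peaks. In the other 9 genes GGAC was denser in peaks than outside them. A sequence match is not a measured m6A site, and a missing match says only that these letters were not in the window.

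AGO1 (chr1:35869808-35930532), AGO3 (chr1:35930718-36072500) and AGO4 (chr1:35808016-35857890) lie side by side on the plus strand of chromosome 1, and AGO2 (chr8:140520156-140635633) on the minus strand of chromosome 8. AGO2 is the Argonaute with slicer activity. The gene field of its 15 peaks also names ENSG00000279766, an overlapping gene, so where both are transcribed their reads cannot be told apart. All 4 transcripts have a long last exon, from 4394 nt in AGO4 to 16864 nt in AGO3, with nearly all their peaks. Little of it lay under peaks. In the 6 lists peaks covered 4.76% to 7.7% of that exon in AGO1, 3.75% to 9.17% in AGO2 and 0.296% to 2.29% in AGO3, against 16.5% to 36.4% in AGO4.

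The AGO2 peak just after the stop codon varied little in extent. It covered 425 bases in hPSCs, 400 in DE, 375 in PPs, 400 in hILOs, 500 in WT PPs and 400 in A5-KO PPs. Of these, 375 bases at chr8:140531656-140532030 were common to all 6 lists, with 13 DRACH sites and no GGAC. A second position further downstream held 1 peak of 125 bases in hPSCs, 1 of 75 in PPs, 1 of 600 in WT PPs and 4 short ones in A5-KO PPs. The rise of AGO2 from 2 peaks in each other list to 5 in A5-KO PPs went with the 4 short peaks at that position, while its bases under peaks in the last exon went from 1100 in WT PPs to 675 in A5-KO PPs.

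AGO1 had 6 peaks in hPSCs, 3 in DE, 3 in PPs, 4 in hILOs, 3 in WT PPs and 5 in A5-KO PPs. Its position near the stop codon, chr1:35919768-35920192, was occupied in all 6 lists, but with 25 bases in common. A position midway along the 3'UTR, chr1:35924543-35925092, was found in all 4 stages and in neither list of batch 2. WT PP and A5-KO PP instead had overlapping peaks near the 3' end of the exon, within chr1:35929343-35929442, and each had at least 1 other of its own in that exon. The hILO list held the 1 CDS peak of AGO1, in exon 2.

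AGO3 had a single peak in each stage, 2 in WT PPs and 3 in A5-KO PPs. The position at the stop codon was found in all 6 lists and covered 150 exonic bases in hPSCs, 150 in DE, 50 in PPs, 200 in hILOs, 375 in WT PPs and 425 in A5-KO PPs. Batch 2 added a CDS peak of 75 bases in exon 18, at chr1:36055024-36055098 in both WT PPs and A5-KO PPs. AGO4 had 3 or 4 peaks in every list and 3 of its 4 positions in all 6. They lay 100, 1725 and 2288 nt after the stop codon, measured to the middle of the stretch common to the lists. AGO3 and AGO4 sequences are shown for the stretches that every list had under a peak, with the DRACH site in capitals.
AGO3 exon 19, chr1:36055780-36055804: aaagatgaatTGACAtacaacgtat
AGO4 exon 18, chr1:35855829-35855853: aggagaaggaGGACTtgctggaatc

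The GW182 genes held 150 of the 324 peaks, and each of the genes has 1 long internal exon with peaks in every list. TNRC6A (chr16:24610209-24827632, plus strand) has an exon 6 of 2586 nt. Peaks covered 75.1% of it in hPSCs, 54.1% in DE, 62.6% in PPs, 62.8% in hILOs, 94.5% in WT PPs and 85.8% in A5-KO PPs. TNRC6B (chr22:40044817-40335808, plus strand) has an exon 5 of 2349 nt, covered over 72.4%, 67%, 50% and 67% in the stages, 86.2% in WT PPs and 66.3% in A5-KO PPs. TNRC6C (chr17:77958703-78108822, plus strand) has an exon 5 of 2604 nt, covered over 78.7%, 41.8%, 40.9% and 63.9% in the stages, 93.3% in WT PPs and 80.3% in A5-KO PPs. In all 3 genes WT PP was highest of the 6 lists and A5-KO PP lower than WT PP. Among the stages hPSCs were highest in all 3, and the lowest was DE for TNRC6A and PPs for TNRC6B and TNRC6C.

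**Figure D3:**
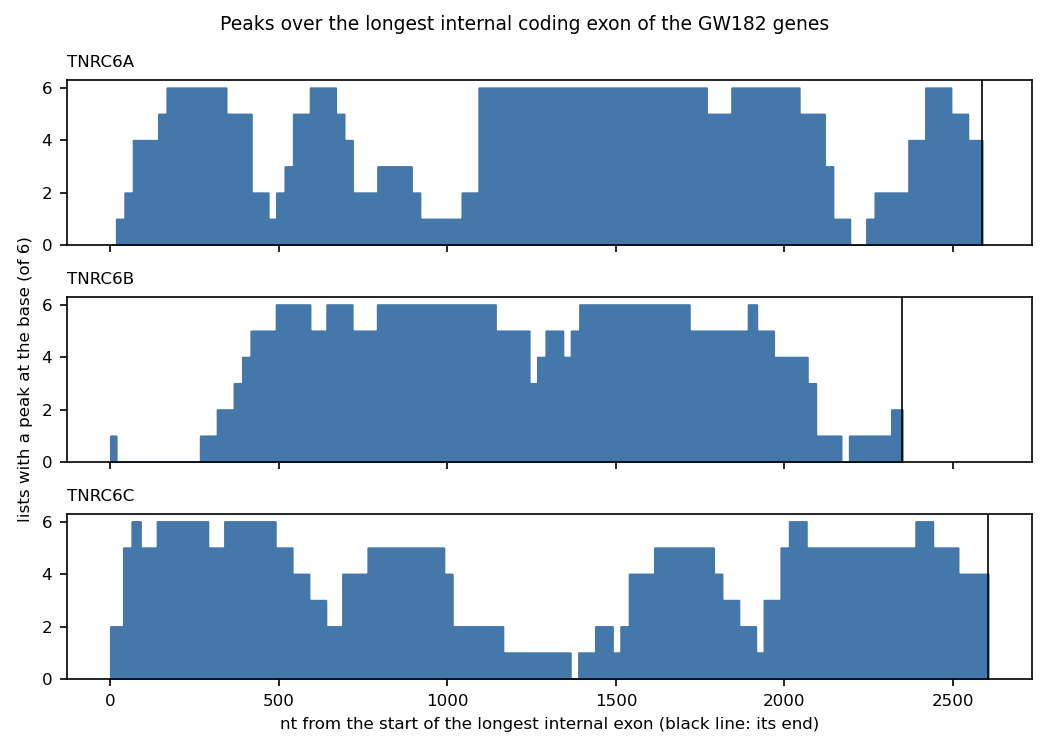
Number of lists, of 6, with a peak at each base of the longest internal exon of TNRC6A, TNRC6B and TNRC6C, in nt from the start of the exon. The black line marks the end of the exon. Stretches with all 6 lists reached 675 bases without a break in TNRC6A and 350 in TNRC6B.

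In TNRC6A, 1125 bases of one position in exon 6 lay under peaks of all 6 lists, the longest unbroken part being chr16:24790325-24790999 with 24 DRACH and 3 GGAC sites. In TNRC6B, 875 bases did so, the longest part being chr22:40265480-40265829 with 17 DRACH and 4 GGAC sites. The corresponding stretches of TNRC6C were shorter, with 325 and 100 bases at 2 positions in exon 5. A further TNRC6A position with peaks in all 6 lists, chr16:24791475-24793406, had 75 bases in common, in exon 6. The sequences shown come from these stretches and from the common 3'UTR peaks of TNRC6A and TNRC6C, with the site in capitals.
TNRC6A exon 6, chr16:24790802-24790826: ctctggttggGGACAgactcctatt
TNRC6B exon 5, chr22:40265687-40265711: ttggcccccaGGACTctaatgacaa
TNRC6C exon 5, chr17:78049086-78049110: caacttcactGGACAtaccaagaag
TNRC6A exon 25, chr16:24825830-24825854: cgccacacccGGACTggccttttct
TNRC6C exon 23, chr17:78105977-78106001: tttttattgtGGACTaatgcaagaa

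Outside the long exons the GW182 genes also had 3'UTR peaks in all 6 lists. TNRC6A had one at chr16:24825542-24826091, TNRC6B one at chr22:40323111-40323610 and TNRC6C a pair at chr17:78104750-78105174 and chr17:78105850-78106724. The TNRC6B peak varied little in extent, with 425, 425, 400 and 425 bases in the stages, 475 in WT PPs and 425 in A5-KO PPs, and held no GGAC in the 375 bases common to all. TNRC6B in WT PPs had further short peaks over its downstream coding exons, and 2 of its 14 WT PP peaks were covered by A5-KO PP peaks over more than 50% of their bases, against 49.8% of all WT PP peaks, whereas 7 of its 8 A5-KO PP peaks were so covered in WT PPs, against 46.6% of all. Summed over the lists TNRC6C had the most peaks of the 10 genes, although TNRC6B had 14 in WT PPs and TNRC6A also had 9 in hPSCs. TNRC6C had 9 in hPSCs, 14 in DE, 9 in PPs, 10 in hILOs, 13 in WT PPs and 12 in A5-KO PPs, and 47 of its 67 peaks held GGAC.

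Over the 10 genes a DRACH site was present in 98% of peaks in hPSCs (89.4 to 99.9), 92.6% in DE (82.1 to 97.9), 95.8% in PPs (85.7 to 99.5), 100% in hILOs (93.2 to 100), 87.3% in WT PPs (76.5 to 94.4) and 87.7% in A5-KO PPs (76.3 to 94.9). All peaks gave 90.4%, 90.7%, 88.9%, 92.8%, 90% and 91.3%. GGAC was present in 56%, 50%, 45.8%, 53.8%, 50.8% and 47.4% of the peaks of these genes and in 57.6%, 54.4%, 51.2%, 55.6%, 56.6% and 53.5% of all peaks. The DRACH value for all peaks lay inside the interval of the 10 genes in 5 lists, and in hILOs it was 92.8% beside a lower bound of 93.2%. In no list was GGAC more frequent on the 10 genes than on all.

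The lists of neighbouring stages were then compared for shared peaks, where a peak was shared when peaks of the other list on its strand covered more than 50% of its exonic bases. Of the 54 DE peaks, 44 were shared with hPSCs (81.5%, 68.6 to 90.7), against 64.6% of all DE peaks. Of the 48 PP peaks, 33 were shared with DE (68.8%, 53.7 to 81.3), against 56.9%. Of the 52 hILO peaks, 31 were shared with PPs (59.6%, 45.1 to 73), against 45.5%. The share of all peaks lay below the interval from hPSCs to DE and inside it from DE to PPs, and it stood at 45.5% beside a lower bound of 45.1% from PPs to hILOs. When both peaks had to be covered over more than 50%, 38.9% were shared from hPSCs to DE, against 47.6% of all DE peaks, so the order of the 10 genes and all genes turned. By the same rule 43.8% were shared from DE to PPs, against 41.3%, and 50% from PPs to hILOs, against 37.1%. Counted from the earlier list, 29 of 50 hPSC peaks were kept in DE, 39 of 54 DE peaks in PPs and 38 of 48 PP peaks in hILOs. Over all genes 52.4%, 46.6% and 60.3% were kept.

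Between WT PP and A5-KO PP, 38 of the 57 A5-KO PP peaks overlapped a WT PP peak by that rule (66.7%, 52.9 to 78.6), against 46.6% of all A5-KO PP peaks, which lay below the interval. Of the 63 WT PP peaks, 28 were kept in A5-KO PPs (44.4%), against 49.8% of all WT PP peaks, so counted from this side the share of the 10 genes was the lower. With both peaks covered over more than 50%, 35.1% of the A5-KO PP peaks were shared, against 30.6% over all genes. All 5 A5-KO PP peaks of AGO2 were shared, as were 9 of 12 of TNRC6C and 7 of 8 of TNRC6B, whereas AGO1 shared 1 of 5 and DROSHA 1 of 4. The 19 peaks of A5-KO PP that were not shared were spread over 9 of the 10 genes, with at most 4 on any gene. The PP list of batch 1 and the WT PP list of batch 2 can be set side by side without a comparison of levels. WT PP shared 32 of the 48 PP peaks, against 57.7% of all PP peaks, and PPs shared 18 of the 63 WT PP peaks, against 22.3% of all.

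Read counts and log2 enrichments could be tied to a peak only in part of each list. Each row carries a peak number. The longest stretch of rows over which this number rose without a break, in steps of at most 20, was set apart in each list. At peaks shared by 2 lists, the Spearman rho of log2 enrichment between lists was 0.68 from hPSCs to DE where both rows lay in these stretches, over 7371 pairs, and 0.19 where neither did, over 13248 pairs. It was 0.61 against 0.31 from DE to PPs, 0.65 against 0.21 from PPs to hILOs and 0.51 against 0.10 from WT PP to A5-KO PP. Input reads gave 0.67, 0.67, 0.74 and 0.83 inside and 0.25, 0.18, 0.14 and 0.24 outside. Inside the stretch, neighbouring peaks of 1 gene had similar input reads, with rho of 0.39 to 0.54. Outside it, neighbouring peaks of a gene whose numbers lay over 1000 apart gave rho of -0.03 to 0.03, whereas peaks of 2 genes with consecutive numbers gave 0.30 to 0.42. Over all neighbouring peaks of 1 gene outside it, most of them closer in number, rho was 0.22 to 0.30. Outside these stretches the values thus went with the peak number more than with the position. The positions themselves matched their gene, since 99% to 99.2% of rows lay on exons of the gene named in them.

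Values are therefore given only for rows inside these stretches, which held 35.8% of the rows in hPSCs, 33.7% in DE, 13% in PPs, 10% in hILOs, 8.26% in WT PPs and 7.44% in A5-KO PPs. They included 56 of the 324 peaks of the 10 genes, on DROSHA, DGCR8, AGO2, AGO3 and AGO4. DICER1, AGO1 and the GW182 genes had none, so no enrichment is given for them. In these stretches the median peak had 75 input reads in hPSCs, 114 in DE, 105 in PPs, 342.5 in hILOs, 110 in WT PPs and 64 in A5-KO PPs. The counting error of a median value was accordingly smallest in hILOs, 0.093, and largest in A5-KO PPs, 0.22. Errors given with ± are counting errors of the IP and input reads. They take the pooled counts as sums over the libraries, which the sources do not state.

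The AGO2 peak after the stop codon had a log2 enrichment of 2.16 ± 0.08 in hPSCs (374 input and 4580 IP reads), 2.36 ± 0.13 in DE (160 and 544), 2.21 ± 0.14 in PPs (124 and 598) and 2.00 ± 0.11 in hILOs (238 and 829). Among the values inside the stretch of each list it stood at percentiles 78.7, 89.8, 91 and 83.8. The differences from stage to stage were 0.20 ± 0.15, -0.15 ± 0.19 and -0.21 ± 0.18, each below 2 counting errors. The 3'UTR peak of DGCR8 in exon 14 had 2.22 ± 0.09 in hPSCs (300 input and 4046 IP reads), 2.01 ± 0.09 in DE (342 and 1191), 1.62 ± 0.09 in PPs (306 and 1756) and 1.81 ± 0.08 in hILOs (411 and 1527). It was highest in hPSCs and lowest in PPs. The difference from DE to PPs was -0.39 ± 0.13, beyond 2 counting errors, beside a median of -0.21 over all 2086 pairs of that comparison. Those from hPSCs to DE and from PPs to hILOs were -0.20 ± 0.12 and 0.19 ± 0.12.

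The AGO3 peak at the stop codon rested on few reads. Its log2 enrichment was 1.77 ± 0.34 in hPSCs (19 input reads), 1.50 ± 0.20 in DE (76), 1.57 ± 0.34 in PPs (23) and 1.54 ± 0.15 in hILOs (129), values that overlap within their errors. The third recurrent AGO4 position had 2.60 ± 0.20 in hPSCs and 2.18 ± 0.15 in DE, a difference of -0.42 ± 0.25. The CDS peak of DROSHA in exon 5 had 2.51 ± 0.09 in WT PPs (387 input and 639 IP reads) and 2.63 ± 0.12 in A5-KO PPs (237 and 385), a difference of 0.12 ± 0.15. Both values stood low in their lists, at percentiles 32.4 and 29. The hPSC peak at this exon 5 position had 1.46 ± 0.08 in the separately scaled hPSC list of batch 1 and was not compared with them. The most enriched DROSHA peak with at least 50 input reads lay in exon 36 in hPSCs, with 1.80 ± 0.08 (400 input and 3538 IP reads), and in WT PPs, with 2.94 ± 0.15 (154 and 204).

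Among shared pairs of the 10 genes in which each peak had 50 input reads or more, none of 8 from hPSCs to DE, 6 from DE to PPs, 4 from PPs to hILOs and 1 from WT PP to A5-KO PP differed by 1 or more on the log2 scale. Over all such pairs a rise of 1 or more was found in 0.155%, 0.125%, 0.152% and 5.22%, and a fall in 0.561%, 0.751%, 1.07% and 12.1%. Beyond 2 counting errors lay 1 pair from hPSCs to DE, a DGCR8 pair at the start of exon 14 with -0.42 ± 0.16 whose peaks differ in extent, and the DGCR8 pair from DE to PPs. The median difference over the pairs of these genes was -0.20 from hPSCs to DE, -0.22 from DE to PPs and 0.06 from PPs to hILOs. For all genes it was -0.12, -0.21 and 0.00044. As a log2 ratio of the deposited counts, with the median of each list subtracted, it was -0.0109, -0.0689 and 0.0866 for the 10 genes, so the size of the first 2 depended on the scaling. The 1 pair from WT PP to A5-KO PP had 0.12 beside a median of -0.05 for all genes, but -0.4303 as that ratio of counts, so its sign depended on the scaling. With all rows as deposited the median was -0.1525 from PPs to hILOs and -0.4088 for A5-KO PPs against WT PPs.

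A further 22 genes of the pathway, chosen as processing and turnover factors or effector partners, were examined beside these 10. Of the 22, 16 had a peak in all 6 lists and none was without a peak. DIS3L2, an exonuclease of uridylated pre-let-7, had 41 peaks over the 6 lists, TUT4, a terminal uridylyltransferase, 34, and the helicase DDX5 30. The median was 15.5 peaks per gene over the 6 lists, against 27.5 for the 10 genes. XPO5, which exports precursor hairpins, had 7 peaks, and none in hPSCs or PPs. PRKRA, a partner of DICER1, had 2. LIN28A, which blocks let-7 maturation in pluripotent cells, had 1 peak in each of the 4 stages and none in WT PPs or A5-KO PPs. ZSWIM8 and EIF4ENIF1 had peaks in every list but A5-KO PP.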

How the data were processed

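Per the methods of the study, the authors used fastp for trimming, HISAT2 for alignment to GRCh38 and exomePeak2 for peak calling, with p below 1e-05 named as a threshold, which part of the deposited peaks did not meet. The deposited files hold 1 list per population with 1 IP and 1 input count per peak, from which pooling of the libraries was inferred. The deposited read counts are raw IP and input counts per peak, pooled over libraries, whether as sums or means not being given in the sources used here. The deposited log2 enrichment is the estimate of exomePeak2 for IP over input, with its own scaling in each list. The deposited p-value and adjusted p-value are those of exomePeak2 and served only as thresholds. Library totals were not analysed here.

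Spans were reduced to GENCODE 44 exons of the gene and placed on its longest coding isoform, with 1-based GRCh38 coordinates. Analyses used Python 3.11.15, numpy 2.4.6, pandas 2.3.3, scipy 1.17.1 and matplotlib 3.10.9. The code for unbroken stretches of peak numbers and for peak overlap was tested on simulated data, and the motif code was not. The members and gene lists were chosen with earlier results of these data known. All 10 members are named, with the peaks found in all 6 lists and, where its values could be tied to the peak, the most enriched peak with at least 50 input reads in each list. Restricting values to unbroken stretches of peak numbers was decided after seeing the data, and all rows as deposited were kept as an alternative. Counting errors add 0.5 to each count. Other settings tried were a higher enrichment threshold, lower p thresholds, other overlap rules, another isoform, another region rule, an input minimum, a ratio of counts (pseudocount 1) and another motif.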

Additional observations from a re-analysis of the deposited data

How the results depend on the processing

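Peak numbers depended on the thresholds, and these thresholds use deposited values that outside the unbroken stretches may belong to other peaks. With an IP/input ratio of at least 3, the 10 genes had 32 peaks in hPSCs, 30 in DE, 22 in PPs and 21 in hILOs. At p below 1e-10 they had 28 in hPSCs, 19 in DE, 18 in PPs, 33 in hILOs, 18 in WT PPs and 16 in A5-KO PPs, and at p below 1e-05 they had 34 in DE, 38 in WT PPs and 26 in A5-KO PPs. Requiring more than 50% overlap of both peaks lowered the shared peaks to 38.9% from hPSCs to DE, 43.8% from DE to PPs and 35.1% from WT PP to A5-KO PP. Counted from the earlier list, the shares were 58% from hPSCs to DE, 79.2% from PPs to hILOs and 44.4% from WT PP to A5-KO PP. GGAC in place of DRACH gave 56% in hPSCs, 50% in DE, 45.8% in PPs, 53.8% in hILOs, 50.8% in WT PPs and 47.4% in A5-KO PPs. When all rows were taken as deposited, which was added after seeing the data, the median difference in log2 enrichment was -0.1525 from PPs to hILOs and -0.4088 from WT PP to A5-KO PP, of opposite sign to the reported medians. As a log2 ratio of the deposited counts with the median of each list subtracted, the latter was -0.4303 in its 1 pair, and the medians from hPSCs to DE and from DE to PPs were -0.0109 and -0.0689. The cause of these differences was not tested. The 36 other alternative values, these last 2 included, moved by less than 1.5 times for counts, stayed within the interval for shares or within the counting error for differences. No paired analysis was possible because each list holds 1 pooled IP and 1 pooled input count per peak, with no value per library. Leaving out a replicate, a replicate block, the planned count model and other size factors were not run for that reason. Depth limits single values of AGO3, with 19 input reads in hPSCs and 23 in PPs, of AGO2, with 20 at 1 PP peak, and of DROSHA, with 19 at 1 A5-KO PP peak.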

Other observations

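A few peaks had their midpoint off the longest coding isoform, 1 on DICER1 and 10 on the GW182 genes. TNRC6B had such a peak at chr22:40246094-40246193 in hPSCs, PPs, hILOs and A5-KO PP and none in DE or WT PP. TNRC6C had one within chr17:78086987-78091434 in hPSCs and PPs. WT PP also had a TNRC6C peak over that span, with its midpoint in the CDS.

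The median exonic length of a peak on the 10 transcripts was 225 bases in hPSCs, 150 in DE, 200 in PPs, 212 in hILOs, 174 in WT PPs and 126 in A5-KO PPs. Over all peaks the median was 175 bases in each list. In A5-KO PP the peaks of these genes were shorter in the median than in any other list. On exons of any annotated isoform the longest peak of the 10 genes, with 2416 bases, was the A5-KO PP peak of DICER1 that takes in exon 24. On the longest coding isoform it was shorter than the TNRC6B peak of 1850 bases in WT PPs.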
